A study of Rattus norvegicus with 2 samples.

Results

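Bcl2 and its multidomain relatives encode the proteins that decide whether the outer mitochondrial membrane is opened during apoptosis. The members were fixed by name and found by matching the RefSeq transcript accession of each probe to rat gene symbols. They are 9 of the 15443 genes so named on the array: the pro-survival genes Bcl2, Bcl2l1 (BCL-XL), Bcl2l2 (BCL-W), Mcl1 and Bcl2a1 (A1), the pore-forming genes Bax, Bak1 and Bok, and Bcl2l10. Pro-survival proteins of this family carry a groove that holds BAX, BAK and the BH3-only proteins in check, and free BAX or BAK assembles into pores that release cytochrome c. In the developing cortex the balance between BCL-XL, MCL-1 and BAX is known to set how many precursors and young neurons survive.

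The RNA came from primary neural stem cells of the cortex of SD rat embryos at day 14, grown in N2 medium to which 10 ng/mL bFGF had been added to sustain their division. All cells were nucleofected with 4 µg of a plasmid built on the retroviral MSCV vector, whose own promoter drives a bicistronic transcript ending in EGFP, so every group carried EGFP and the transfection itself. Vector cells without bFGF carried the empty MSCV-IRES-EGFP plasmid and were held in NB medium for 2 days. Bcl-2 cells with bFGF carried rBcl-2-MSCV-IRES-EGFP, with the rat Bcl-2 insert, in N2 medium. Vector cells with bFGF carried the empty plasmid in N2 medium and are the labelled control of both. The labels do not make clear whether the 2 days also apply to the cells kept with bFGF. Transfection was transient, so a culture can hold transfected and untransfected cells, and what share carried the plasmid is not given in the sources used here.

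Total RNA of these cells was hybridised to 2 two-colour Agilent arrays of 1 slide, scanned together in 1 scan, with red (Cy5) labelled vector without bFGF on the withdrawal array and Bcl-2 with bFGF on the array labelled Bcl-2. Green (Cy3) is labelled vector with bFGF on both arrays, and the channel signals below go against these labels. There was 1 array per comparison, with no dye swap by the labels, so replicate error could not be estimated. No test was made, and each value describes these 2 arrays alone. Median net signals over all gene spots lay between 189 and 284.5 scanner units in the 4 channels, and 66.1% to 72.0% of gene spots were well above background. The precision is limited by the number of arrays. In RNA from a whole culture, fewer cells of a type and less RNA per cell cannot be told apart.

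Which way the ratios run is not settled. Both arrays carry the labelled control in green, yet their log2 ratios ran opposite to each other over all gene spots (r = -0.67, or -0.12 with the ratio of Feature Extraction, the scanner software). Over 26861 spots well above background, the normalized log2 signal of green on the array labelled Bcl-2 minus green on the withdrawal array, which the labels describe alike, had an SD of 0.40. Green on the array labelled Bcl-2 minus red on the withdrawal array had an SD of 0.14, although the labels give these channels different cells. Red on the array labelled Bcl-2 minus green on the withdrawal array had an SD of 0.15, and minus red on the withdrawal array 0.38. Ratios are given as red over green by the labels, and with the sign turned every "higher" becomes "lower" for that array.

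Of the 9 members, 6 had a promoter window in the RefSeq table of assembly GRCr8, running from 250 bases before to 50 bases after an annotated start (Bcl2l1 has 4 such windows). The windows below belong to Bcl2, whose plasmid copy does not use its own promoter, to Bcl2l2 and Bak1, which lay on opposite sides of 0 on the array labelled Bcl-2, and to Mcl1. Capitals mark the ETS motif CCGGAAG, searched on both strands because ETS factors are classical targets of signalling downstream of FGF receptors. They lie at chr13:23366851-23367150 (minus strand) for Bcl2, chr15:32326511-32326810 (plus strand) for Bcl2l2, chr20:5110925-5111224 (minus strand) for Bak1 and chr2:185907918-185908217 (plus strand) for Mcl1, and each is written 5′ to 3′.
Bcl2: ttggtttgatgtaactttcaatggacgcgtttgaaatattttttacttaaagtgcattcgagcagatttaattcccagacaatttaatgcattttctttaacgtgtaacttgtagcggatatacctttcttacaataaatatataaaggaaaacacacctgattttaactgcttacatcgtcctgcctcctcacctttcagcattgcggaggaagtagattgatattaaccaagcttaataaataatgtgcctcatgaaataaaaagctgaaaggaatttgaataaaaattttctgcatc
Bcl2l2: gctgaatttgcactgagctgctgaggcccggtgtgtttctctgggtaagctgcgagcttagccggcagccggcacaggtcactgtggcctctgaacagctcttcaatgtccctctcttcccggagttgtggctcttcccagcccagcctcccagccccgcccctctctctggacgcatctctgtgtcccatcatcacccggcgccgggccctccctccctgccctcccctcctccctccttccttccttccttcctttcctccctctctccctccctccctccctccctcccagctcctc
Bak1: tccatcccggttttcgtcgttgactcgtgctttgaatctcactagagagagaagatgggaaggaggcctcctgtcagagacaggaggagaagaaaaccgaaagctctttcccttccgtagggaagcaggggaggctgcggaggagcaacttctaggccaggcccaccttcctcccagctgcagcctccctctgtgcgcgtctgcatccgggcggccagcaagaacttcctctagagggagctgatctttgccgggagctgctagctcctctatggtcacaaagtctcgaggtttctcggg
Mcl1: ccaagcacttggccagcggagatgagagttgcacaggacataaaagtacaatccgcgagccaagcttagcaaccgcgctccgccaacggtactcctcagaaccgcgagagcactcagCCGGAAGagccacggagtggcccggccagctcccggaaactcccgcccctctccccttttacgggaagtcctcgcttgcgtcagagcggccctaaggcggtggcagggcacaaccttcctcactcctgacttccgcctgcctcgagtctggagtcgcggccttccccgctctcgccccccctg
This ETS motif was present in 3 of the 9 windows of members, 1 of Mcl1 and 2 of Bcl2l1, against 8.75% of 33469 windows of all genes. Shorter or variant ETS sites were not searched, so an unmarked window may still hold them. The match in Mcl1 began at position -133 from the start site, and those in Bcl2l1 began at positions -26 and -195 from the start site of their windows. The Sp1 motif GGGCGG, also searched on both strands, occurred once each in the Bcl2l2, Bak1 and Mcl1 windows and in 1 Bcl2l1 window, and not in that of Bcl2. It was present in 33.1% of all windows, and in these windows it overlapped no ETS match. The Bcl2 window held 32.7% G and C, against 64.3% for Bcl2l2 and for Mcl1, 57.7% for Bak1 and a median of 51.7% over all windows. A match of letters is a description of the window and no evidence of a bound factor.

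Bcl2, the founding pro-survival gene and the one carried by the plasmid, showed no excess in the channel labelled Bcl-2. Its only probe (A_64_P005952) had a median spot signal of 709 in red, labelled Bcl-2 with bFGF, and 403 in green, labelled vector with bFGF, on the array labelled Bcl-2. On the withdrawal array it had 782.5 in red, labelled vector without bFGF, and 381.5 in green, labelled vector with bFGF. Red exceeded green on both arrays in these signals, which were taken before any correction for the brightness of the dyes. After normalization the log2 ratio was -0.02 on the array labelled Bcl-2 (0.02 with the sign turned), a 0.984-fold ratio. The error that the scanner software deposits with each ratio, an estimate of spot noise that covers no difference between cultures, was 0.21 for this probe. Of 10241 genes measured on this array, 93.3% had a larger absolute ratio than Bcl2.

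Where both channels are labelled with the empty vector, on the withdrawal array, Bcl2 had a log2 ratio of 0.39 (-0.39 with the sign turned), 1.31-fold higher in red. That exceeded its deposited error of 0.21, and 23.0% of 10852 genes had a larger absolute ratio. The probe checks the label only if it lies within the transfected insert, which the files do not say, since they hold no probe sequences. The library labelled Bcl-2 is therefore called by its label throughout.

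**Figure D1:**
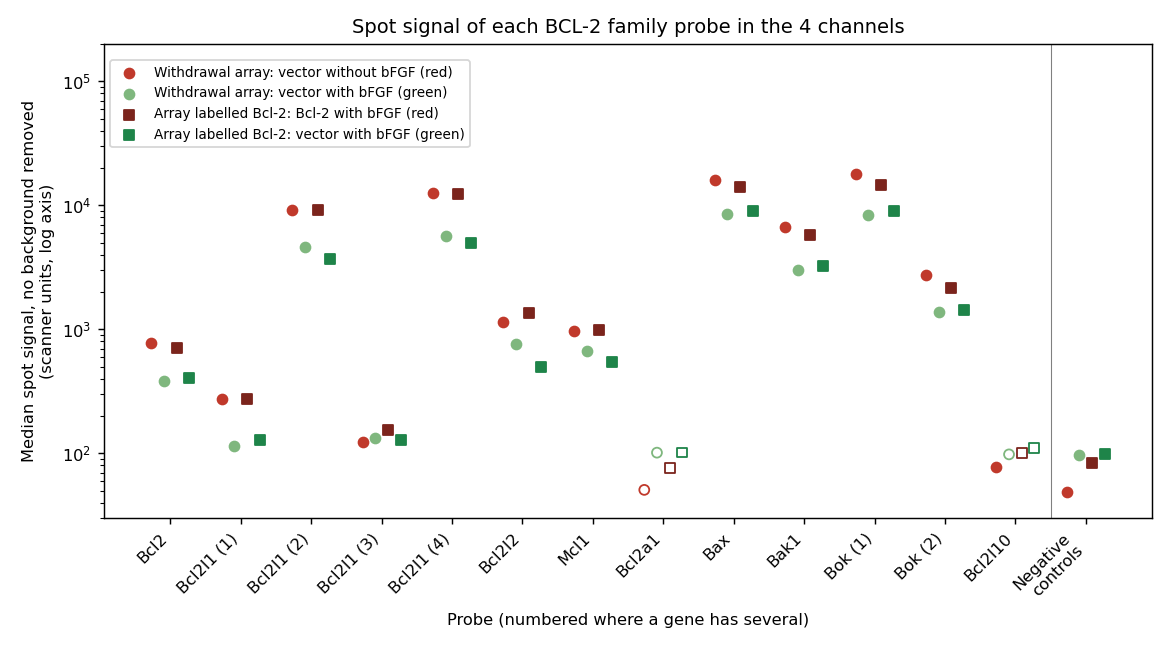
Median spot signal in scanner units (log axis, background not removed) of each of the 13 probes of the 9 genes, with red left of green for each array and the withdrawal array left of the array labelled Bcl-2; open symbols were not well above background, and negative control spots stand at the right. Bcl2 had 709 and 403 units on the array labelled Bcl-2 and 782.5 and 381.5 on the withdrawal array, and signals of different probes are not comparable with each other.

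No measured member reached 2-fold on either array. Of the 9 members, 8 were well above background in at least 1 channel of the withdrawal array, and 0 of 8 were at least 2-fold higher or lower, against 2.42% of all genes at least 2-fold higher in red and 0.47% at least 2-fold lower. On the array labelled Bcl-2, 0 of 7 measured members were at least 2-fold higher or lower, against 0.557% of genes higher in red and 2.0% lower. With the sign turned, these shares of all genes change places. By the Feature Extraction ratio the background was wider, at 8.17% higher and 2.18% lower for withdrawal, and 3.5% higher and 6.74% lower for the array labelled Bcl-2, and again no member was counted. With 8 and 7 members, a count of 0 is close to what these shares give and is no result about the family.

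The pro-survival members lay on both sides of 0 on each array. Their median log2 ratio was 0.06 on the withdrawal array (4 of 5 measured, range -0.18 to 0.39) and 0.05 on the array labelled Bcl-2 (range -0.08 to 0.46). Over all genes the medians were 0.03 and -0.01.

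Bcl2l1, which encodes the long-lived inhibitor BCL-XL, was read by 4 probes of very different brightness. The 2 bright probes share a transcript accession. A_64_P054735 had 12453 in red, labelled vector without bFGF, and 5695.5 in green, labelled vector with bFGF, on the withdrawal array, and 12361.5 in red, labelled Bcl-2 with bFGF, and 4939.5 in green, labelled vector with bFGF, on the other. A_64_P008047 had 9163 in red and 4589 in green on the withdrawal array, and 9091 in red and 3668 in green on the array labelled Bcl-2. Their log2 ratios were 0.30 and 0.19 on the withdrawal array and 0.01 and 0.03 on the array labelled Bcl-2, with deposited errors of 0.20 to 0.21. The bright probes of Bcl2l1 thus stayed within 1 deposited error of 0 on the array labelled Bcl-2.

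The dim Bcl2l1 probes disagreed with the bright ones and with each other. A_44_P548065, annotated to another Bcl2l1 transcript, had 275 in red and 115 in green on the withdrawal array, and 276 in red and 129 in green on the array labelled Bcl-2. Its log2 ratios were 1.25 and 0.89 by loess. The Feature Extraction ratios, to which the deposited errors of 0.32 and 0.31 belong, were 2.34 and 1.99. The signal of A_64_P054730, annotated to the remaining Bcl2l1 transcript, was 123 in red and 133 in green on the withdrawal array, and 155 in red and 128 in green on the other, with log2 ratios of -0.03 and 0.23. Green signals of these probes lay close to the median green signal of negative control spots, which was 96 for withdrawal and 99 for the array labelled Bcl-2. A_44_P548065 was the only member probe with an absolute log2 ratio over 1 on either array, and was higher in red on both. The median over the 4 probes, the value used for the gene, was 0.25 on the withdrawal array and 0.13 on the array labelled Bcl-2 (-0.25 and -0.13 with the sign turned).

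Bcl2l2 encodes BCL-W, a pro-survival protein best known in neurons and testis. Its probe had 1354.5 in red, labelled Bcl-2 with bFGF, and 499 in green, labelled vector with bFGF, on the array labelled Bcl-2. It had 1152 in red and 763 in green on the withdrawal array. The log2 ratio on the array labelled Bcl-2 was 0.46 (-0.46 with the sign turned), 1.38-fold higher in red with a deposited error of 0.21, and 4.53% of genes lay higher. The ratio on the withdrawal array was -0.12 (0.12 with the sign turned), and 0.14 when that array was only centred on its median. By the Feature Extraction ratio it was -0.23 there, just beyond the deposited error of 0.21. Bcl2l2 was the highest member on the array labelled Bcl-2.

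Mcl1 encodes a short-lived pro-survival protein that neural precursors require. Its probe had 968.5 in red and 665.5 in green on the withdrawal array, and 986 in red and 540 in green on the array labelled Bcl-2. The log2 ratios by loess were -0.18 and -0.08 (0.18 and 0.08 with the sign turned). The Feature Extraction ratios, to which the deposited errors of 0.21 and 0.20 belong, were -0.30 and -0.03. The first of these exceeded its error. Median centring alone gave 0.08 on the withdrawal array. Mcl1 was the lowest member on the withdrawal array, where 22.7% of genes lay lower still.

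Bcl2a1, a pro-survival gene of blood cells, was not well above background in any channel. Its mean signal was 50.7 in red and 101.2 in green for withdrawal (7 of 10 printed spots used) and 75.7 in red and 101.4 in green for the array labelled Bcl-2 (9 spots used). Median negative control signals were 49 in red and 96 in green on the withdrawal array, and 83 in red and 99 in green on the other array. No ratio is given for it.

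**Figure D2:**
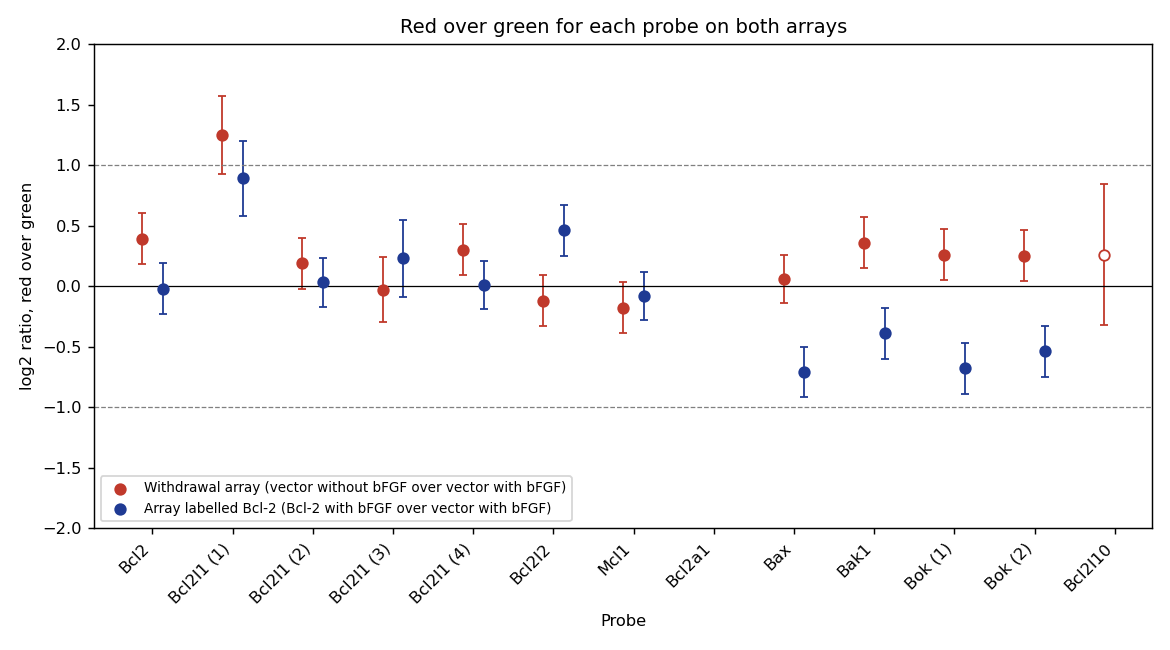
Log2 ratio of red over green for each probe on the withdrawal array (red points: vector without bFGF over vector with bFGF) and on the array labelled Bcl-2 (blue points: Bcl-2 with bFGF over vector with bFGF); bars are 1 deposited error of spot noise, dashed lines mark 2-fold, the open symbol was dim in green, and Bcl2a1 has no point. Bax, Bak1 and both Bok probes lie at or above 0 on the withdrawal array and between -0.71 and -0.39 on the array labelled Bcl-2.

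The pore-forming members Bax, Bak1 and Bok were all lower in the channel labelled Bcl-2 with bFGF than in vector with bFGF, with log2 ratios of -0.71, -0.39 and -0.61 (0.71, 0.39 and 0.61 with the sign turned). Their median was -0.61 on that array, against -0.01 over all genes, and 0.26 on the withdrawal array (range 0.06 to 0.36), against 0.03 over all genes. None of the pro-survival members lay below -0.08 on the array labelled Bcl-2. The choice of roles was made with these values known, so the gap between the groups is a description.

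Bax encodes the pore-former that waits in the cytosol until activated, and its loss is known to spare developing neurons. Its probe had 14057.5 in red, labelled Bcl-2 with bFGF, and 8986.5 in green, labelled vector with bFGF, on the array labelled Bcl-2. Its withdrawal signals were 15860 in red, labelled vector without bFGF, and 8477 in green, labelled vector with bFGF. Red was thus lower, and green higher, on the array labelled Bcl-2 than on the withdrawal array. The log2 ratio of -0.71, a 0.611-fold ratio with a deposited error of 0.21, had 4.58% of genes below it. Bax was at 0.06 on the withdrawal array, with a deposited error of 0.20, and 83.9% of genes had a larger absolute ratio, but median centring without loess gave 0.37.

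Bak1 encodes the pore-former that sits in the mitochondrial membrane. It had 5797 in red and 3213 in green on the array labelled Bcl-2, and 6733 in red and 3024 in green on the withdrawal array. The log2 ratio was -0.39 on the array labelled Bcl-2, with 12.9% of genes lower, and 0.36 on the withdrawal array, 1.29-fold higher in red, with 17.0% of genes higher. Both exceeded the deposited error of 0.21.

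Bok encodes a BAX-like protein that resides largely at the endoplasmic reticulum and is little restrained by BCL-2. Its probes gave the same sign on each array. A_64_P025441 had 14485.5 in red and 9027 in green on the array labelled Bcl-2, and 17906 in red and 8279 in green on the withdrawal array. A_64_P101251 had 2169 in red and 1438.5 in green on the array labelled Bcl-2, and 2753 in red and 1369 in green on the withdrawal array. The log2 ratios of these probes were -0.68 and -0.54 on the array labelled Bcl-2 and 0.26 and 0.25 on the withdrawal array. Bok as a gene was at -0.61, with 6.2% of genes lower, and at 0.26.

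Bcl2l10, whose protein has been described both as pro-survival and as pro-apoptotic, was near background. Its probe had 78 in red and 98 in green on the withdrawal array, where green was not well above background. The log2 ratio there was 0.26, or at least 1.15-fold higher in red when green is set at the dimmest signal called well above background, a bound open to dye bias. Under alternatives it ran from -0.19 to 0.52, so its direction flips. On the array labelled Bcl-2 it had 101 in red and 110.5 in green and was well above background in neither.

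Over all measured members the median log2 ratio was 0.25 on the withdrawal array, with 6 of 8 above 0, and -0.08 on the array labelled Bcl-2, with 5 of 7 below 0 (-0.25 and 0.08 with the sign turned). The medians of all genes were 0.03 and -0.01.

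**Figure D3:**
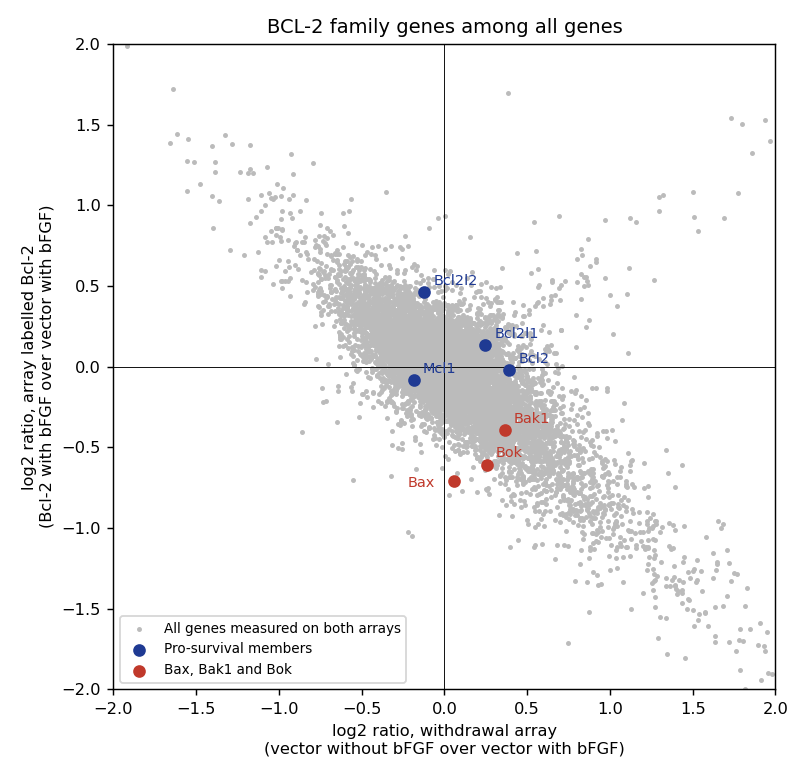
Log2 ratio on the withdrawal array (horizontal) against the array labelled Bcl-2 (vertical) for 10133 genes measured on both arrays, with 29 further genes beyond the axes; blue points are pro-survival members and red points are Bax, Bak1 and Bok. The cloud runs from upper left to lower right, both arrays share the labelled control, and Bax at 0.06 and -0.71 lies at its lower edge.

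Setting a pore-forming gene against a pro-survival gene within an array removes any constant shift between the channels. It does not remove a shift that changes with the brightness of the probe, which was not tested. On the array labelled Bcl-2 the log2 ratio of Bax minus that of Bcl2 was -0.69, and ran from -0.73 to -0.49 over 7 settings. That of Bax minus that of Bcl2l2 was -1.17, and ran from -1.31 to -0.99. The 12 such differences there ran from -1.17 to -0.31, so each pore-forming gene lay below each measured pro-survival gene. With the sign turned, each lay above. These differences are pairs of the ratios given above and add no support to them. For withdrawal, Bax minus Bcl2 was -0.33, Bax minus Mcl1 was 0.24 and Bak1 minus Mcl1 was 0.55. There the 12 differences lay on both sides of 0, between -0.33 and 0.55.

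Since channels of different arrays were closer to each other than to channels with the same label, the level of each member was also compared across channels within its probe. Bax had a normalized log2 signal of 13.14 in the red channel labelled Bcl-2 with bFGF, 13.50 in the red channel labelled vector without bFGF, and 13.44 and 13.85 in the green channels labelled vector with bFGF of the withdrawal array and of the array labelled Bcl-2. Its 2 labelled controls thus differed by 0.41. The green channels of Bak1 differed by 0.39, and those of the Bok probes by 0.45 and 0.33, in each case higher on the array labelled Bcl-2. Bcl2l2 differed the other way, with green lower by 0.45 on the array labelled Bcl-2 (9.46 there and 9.91 on the withdrawal array). Bcl2 was at 9.07 in the channel labelled Bcl-2, 9.27 in vector without bFGF, and 8.88 and 9.10 in the green channels of the withdrawal array and of the array labelled Bcl-2. The channel labelled Bcl-2 was not the highest of the 4 for Bcl2.

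**Figure D4:**
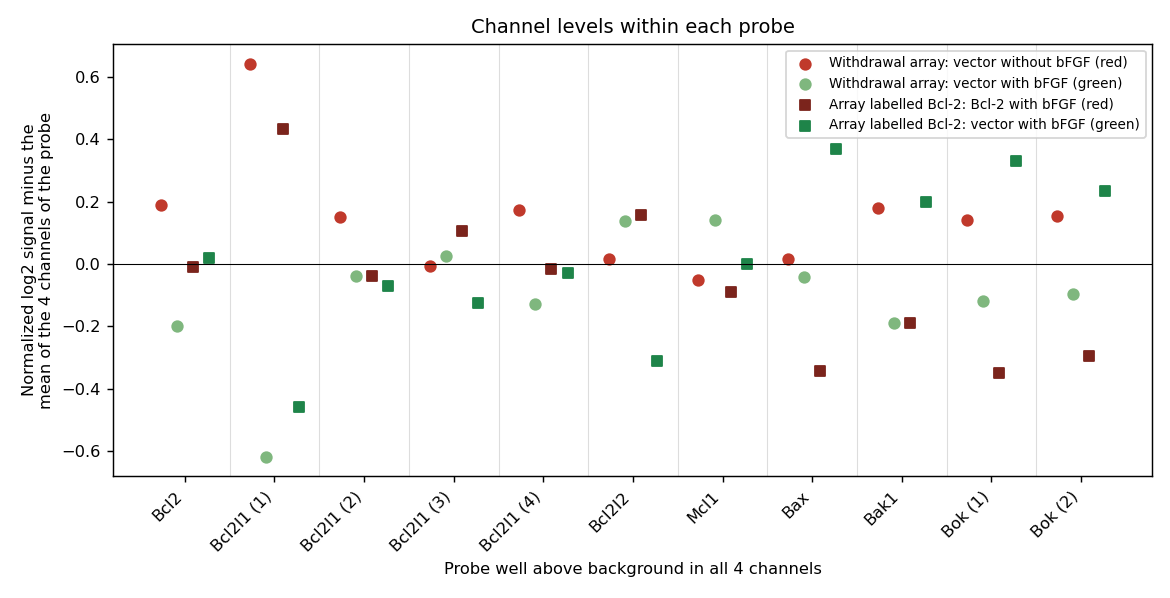
Normalized log2 signal of each channel minus the mean of the 4 channels of the same probe, for the 11 member probes well above background in all 4 channels; within a probe the order is vector without bFGF (red), vector with bFGF (green), Bcl-2 with bFGF (red) and vector with bFGF (green, array labelled Bcl-2). The 2 green channels carry the same label yet differ by 0.41 for Bax and 0.22 for Bcl2.

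The sum of the log2 ratios of both arrays is free of the part that ran opposite on them, and the authors' deposited value table holds this sum, as a product of ratios, in the column of the array labelled Bcl-2. Over 10162 genes measured on both arrays the sum had an SD of 0.27 and a median of 0.0. Bax had a sum of -0.65 (0.65 with the sign turned), and 0.344% of genes lay lower, but median centring without loess brought it to -0.27. Bok had a sum of -0.35, with 4.58% of genes lower, and Mcl1 had -0.27, which that setting brought to -0.06 and -0.12. Bcl2, Bcl2l1 and Bcl2l2 had sums of 0.37, 0.38 and 0.34, each with 5.92% to 7.36% of genes higher, and that of Bcl2l1 reached 0.78 with the Feature Extraction ratio. By probe, the sums of Bcl2l1 were 0.31 and 0.22 for the bright probes. The dim probes gave 0.20 and, for A_44_P548065, 2.14. The value of the gene thus lay above all its probes but A_44_P548065. Bak1 had -0.03, which ran from -0.06 to 0.23 under alternatives. The deposited column gave log2 values of -0.62 for Bax and 0.34 for Bcl2. The sum equals red of the array labelled Bcl-2 minus green of the withdrawal array, less green of the former minus red of the latter. These parts were -0.30 and 0.35 for Bax, 0.20 and -0.17 for Bcl2, and 0.02 and -0.32 for Bcl2l2. Each part sets red against green in channels close in level, and dye bias was not tested. If both channel pairs held matching cells, the sum would hold dye bias and noise but no difference between cells. The sum reads as a difference between cells only if a single pair held matching cells, which the labels do not say.

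By its ratios on both arrays, Bcl2 had many neighbours. Leaving out genes with a provisional symbol, the nearest were RT1-S3, a class I histocompatibility gene, Nrsn1, a gene of neuronal vesicles, and Pcdhga2, a protocadherin. Their Euclidean distances were 0.012, 0.018 and 0.018 in log2 units over the 2 arrays. Within 0.1 of Bcl2 on both arrays were 179 of all 10162 genes.

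The BH3-only genes, whose products trigger BAX and BAK or occupy the pro-survival groove, were all on the array, and 8 of 8 were measured on the withdrawal array and 6 on the array labelled Bcl-2. Their medians were 0.02 and -0.07 (-0.02 and 0.07 with the sign turned). Bbc3, which encodes PUMA, was at least 2-fold different by 1 probe, at 1.62 on the withdrawal array and -1.31 on the array labelled Bcl-2 (-1.62 and 1.31 with the sign turned), and no other gene of this list was so by the loess ratio. Of all genes, 2.42% were at least 2-fold higher in red by loess for withdrawal, and 0.47% were at least 2-fold lower. For the array labelled Bcl-2 these shares were 0.557% and 2.0%. Whether 1 such gene in this list exceeds the shares was not tested. The Feature Extraction ratio gave Bbc3 1.71 and -1.41. The lowest on the withdrawal array was Pmaip1, which encodes NOXA, at -0.14 and dim in green, and the highest on the array labelled Bcl-2 was Hrk, a BH3-only gene of neurons, at 0.17 (0.14 and -0.17 with the sign turned, which makes Pmaip1 the highest and Hrk the lowest). Hrk depended on the scaling: it was at 0.11 on the withdrawal array by loess, but at 1.07 there and 1.12 on the array labelled Bcl-2 by the Feature Extraction ratio. That ratio also put Bmf, a BH3-only gene linked to the cytoskeleton, at -1.03 on the array labelled Bcl-2, against 0.02 by loess. Bmf was dim in red there.

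Of 12 other BCL-2-related genes on the array, 11 were measured on each array, with medians of -0.01 and 0.09 (0.01 and -0.09 with the sign turned). None was at least 2-fold by loess, against shares of all genes of 2.42% higher and 0.47% lower for withdrawal and 0.557% higher and 2.0% lower for the array labelled Bcl-2, while the Feature Extraction ratio put Bcl2l15, dim in green, at 1.06 on the withdrawal array. For withdrawal they ran between Bcl10, an adaptor of NF-κB signalling, at -0.35 and Tmbim6, which encodes BAX inhibitor 1, at 0.58 (0.35 and -0.58 with the sign turned). For the array labelled Bcl-2 the ends were the co-chaperone genes Bag3 at -0.54 and Bag1 at 0.35 (0.54 and -0.35 with the sign turned).

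The 16 members of the cytochrome c, apoptosome, caspase, VDAC and inhibitor list had medians of 0.15 and -0.09 (-0.15 and 0.09 with the sign turned). Of these, 0 of 16 were at least 2-fold on either array, which at the background shares just given is no result about the list. Casp6, an executioner caspase with a role in axons, was highest on the withdrawal array at 0.77 and lowest on the array labelled Bcl-2 at -0.76, or lowest at -0.77 and highest at 0.76 with the sign turned. Cycs, which encodes cytochrome c, was lowest on the withdrawal array at -0.39, and Aifm1, which encodes apoptosis-inducing factor, was highest on the array labelled Bcl-2 at 0.35 (0.39 and -0.35 with the sign turned). Among 10 measured genes that regulate the stability or phosphorylation of MCL-1 and BCL-2, the medians were 0.09 and -0.03 (-0.09 and 0.03 with the sign turned) and none was at least 2-fold, against the same shares of all genes. Mdm2, which encodes a ubiquitin ligase, was highest on the withdrawal array at 0.44 and lowest on the array labelled Bcl-2 at -0.31, or lowest at -0.44 and highest at 0.31 with the sign turned.

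Markers of cell types also differed between channels, and their part in the values of the members was not tested. Medians are again given with the sign turned in parentheses. All 7 neural stem cell markers (Nes, Sox2, Pax6, Vim, Fabp7, Hes1 and Notch1) were measured, with medians of 0.23 (-0.23) on the withdrawal array and -0.27 (0.27) on the array labelled Bcl-2. They lay on both sides of 0 on each array. Fabp7 was at 1.26 (-1.26) and -0.91 (0.91), and Vim at -0.49 (0.49) and 0.56 (-0.56). The astrocyte list had 4 of 5 genes measured, with medians of 0.99 (-0.99) and -0.86 (0.86), while Gfap, its defining gene, was not well above background. The neuron list had 3 of 5 measured, with medians of 0.60 (-0.60) and -0.49 (0.49). In the fibroblast and meninges list, 4 genes were measured on the withdrawal array with a median of 0.31 (-0.31) and 3 on the array labelled Bcl-2 with a median of -1.1 (1.1), where Col1a2 was at -1.71 (1.71). Oligodendrocyte lineage genes had medians of 0.16 (-0.16) and -0.23 (0.23), microglia and blood genes -0.17 (0.17) and 0.17 (-0.17), and endothelium and pericyte genes 0.10 (-0.10) and 0.01 (-0.01). Ptprc, Pecam1 and Cldn5 were not well above background.

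Other ways of processing left the signs of Bax, Bak1 and Bok in place on both arrays. On the array labelled Bcl-2, Bax lay between -0.75 and -0.63, Bok between -0.61 and -0.54, Bak1 between -0.43 and -0.36, and Bcl2l2 between 0.35 and 0.63. Bcl2 lay between -0.15 and 0.04 there and crossed 0 under 2 of 9 alternatives. Centring the withdrawal array on its median, without loess, gave Bcl2 0.65 there.

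**Figure D5:**
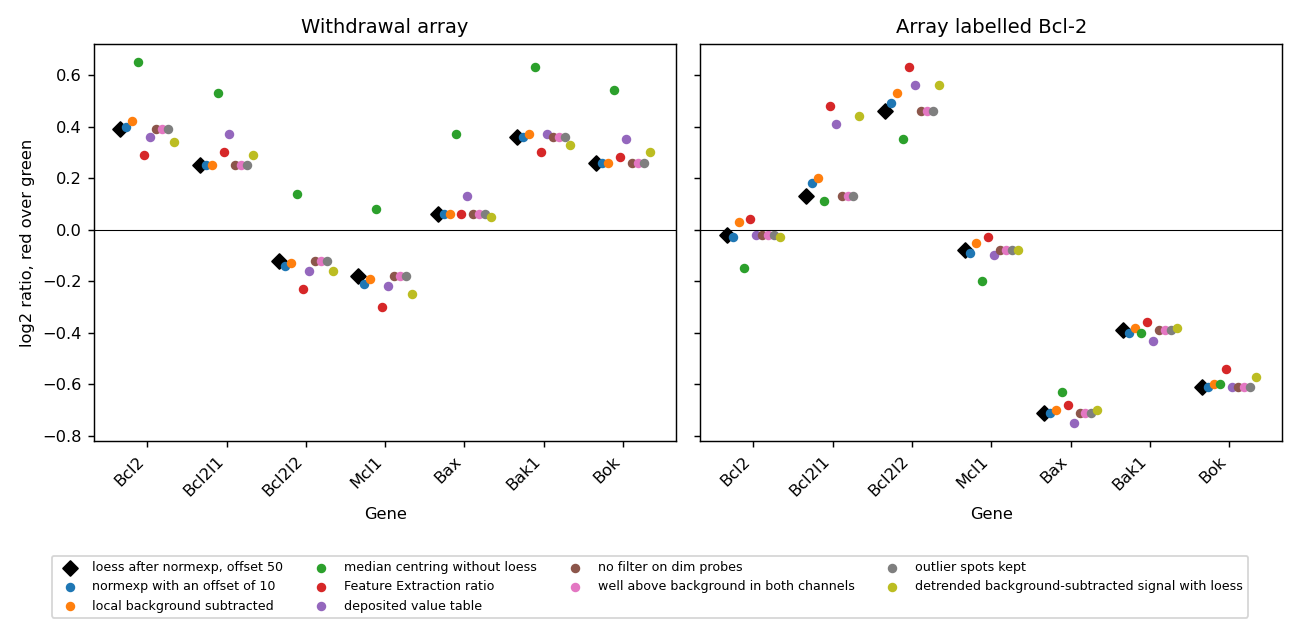
Log2 ratio of red over green of 7 members on the withdrawal array (left panel) and the array labelled Bcl-2 (right panel), with the value used here as a black diamond and each of 9 alternatives as a coloured point. Bax, Bak1 and Bok lie above 0 on the withdrawal array and below 0 on the array labelled Bcl-2 under each, and median centring without loess gives the highest values on the withdrawal array.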

How the data were processed

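Per the file headers, the deposited scanner files hold spot and local background intensity in red and green (medians over pixels, before normalization), flags of 0 or 1, and a log10 ratio, red over green, with an error. The headers name Feature Extraction 11.5.1.1, design 028282 and build rn4; the submitters' processing notes name version 8.5.1.1. A deposited table by the authors lists a linear ratio for 29782 probes in 2 columns, with medians of 0.932 and 0.944. No source used here gives its scale, centring or direction, so its columns were set against the scanner signals over 28395 probes. Allowing a constant and a tolerance of 0.05 on the log2 scale, 100% of probes in the first column equalled the withdrawal ratio. In the second, 7.06% equalled the ratio of that array, while 100% equalled both ratios multiplied together.

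Median signals were background-corrected (normexp, offset 50) and loess-normalized array by array, giving control spots a weight of 0, with limma 3.58.1 in R 4.3.3. Python 3.11.15, numpy 2.4.6 and pandas 2.3.3 did the rest. Outlier spots (534 for withdrawal and 576 for the other array) were dropped, and saturation affected 0 spots. Spots were averaged per probe. Probes with at least 50% of their spots well above background in at least 1 channel were kept, and the median of kept probes stands for the gene, which gave 10852 and 10241 genes. Names came from a RefSeq gene table of GRCr8, and promoter sequences from the RefSeq promoter table of that assembly. At least 2-fold means a log2 ratio of 1 or more in size with all kept probes on the same side of 0. With 1 array per comparison no test was made. Normalization and counting were tested on simulated data. Members and lists were chosen with earlier results of these data known. All members are named. From the other lists, genes at least 2-fold on either array and the highest and lowest on each array are named. So are the 3 nearest to Bcl2 among genes without a provisional symbol. Some values that this rule names are not reported here. Alternatives changed the background correction, the normalization, the source of the ratio, the filter on dim probes and the outlier spots.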

Additional observations from a re-analysis of the deposited data

How the results depend on the processing

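Each value was recomputed under 9 alternatives, 1 of them (the detrended background-subtracted signal with loess) chosen after seeing the data. Median centring without loess moved the median of all genes on the withdrawal array to 0.17, against 0.03, and gave Bcl2 a log2 ratio of 0.65 there, against 0.39. The same setting gave Bax a sum over both arrays of -0.27, against -0.65. Of 170 values of the other members under alternatives, 157 stayed within 1 deposited error of the value reported and 13 moved further. That share overstates the agreement. The alternatives for the filter on dim probes and for outlier spots left every member value they gave unchanged. The deposited table and the Feature Extraction ratio differ by little more than a constant. Of these, Bcl2l1 on the array labelled Bcl-2 reached 0.48 with the Feature Extraction ratio, against 0.13. The member medians stayed between 0.25 and 0.45 on the withdrawal array and between -0.20 and -0.03 on the array labelled Bcl-2, and 0 members were at least 2-fold under any alternative run. Among all genes the number at least 2-fold ranged from 289 to 1150 on the withdrawal array, against 314, and from 252 to 1048 on the array labelled Bcl-2, against 262. On the array labelled Bcl-2, 34.2% of those genes were higher in red with the Feature Extraction ratio, against 21.8%. Slide and scan as a block was not run, since both arrays share 1 slide and 1 scan. No paired analysis was possible because each comparison has 1 array. Dim probes limit Bcl2l10, Bcl2a1 and the weaker Bcl2l1 probes, whose green signals lay near those of negative controls. The weaker Bcl2l1 probes were still well above background in every channel. Red signals of A_44_P548065 were 275 and 276, against red negative control medians of 49 and 83.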
